A study of Rattus norvegicus with 12 samples.

Results

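The genes of the proteasome were described in epididymal white fat of fed and fasted rats. A gene was taken where a probe set of the value table had 1 gene symbol, and that symbol began with Psma, Psmb, Psmc, Psmd, Psme, Psmf or Psmg followed by a digit. The rule found 47 genes on 54 probe sets, of 14506 genes tested, and the brightest probe set stood for each gene. The animals were 12 male Sprague-Dawley rats, 4 of them fed, 4 fasted until phase 2 and 4 fasted until phase 3, and the RNA of each was hybridised to an Affymetrix Rat Gene 1.0 ST array of its own. In a long fast, phase 2 is the period in which fat is the main fuel and protein is spared, and phase 3 is the late period in which protein breakdown rises. Ages and fasting times in days are not given in the sources used here. The labels name no genotype or drug that differed between the groups.

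The proteasome is the protease that degrades proteins marked with ubiquitin. Its core particle, 20S, is a barrel of stacked rings, in which alpha subunits form the gated outer rings and beta subunits the inner rings. Only the beta subunits Psmb5, Psmb6 and Psmb7 cut peptide bonds in the standard core. In immune cells, and in other cells exposed to interferon, newly made cores carry Psmb8, Psmb9 and Psmb10 in their place. The cap, called 19S, has a base of ATPases that unfold the substrate and a group of non-ATPase subunits that bind and remove ubiquitin. Other caps, built from Psme1 and Psme2, from Psme3 or from Psme4, open the core without ATP. In wasting muscle, genes of proteasome subunits are known to rise.

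The 47 genes comprised 6 of the alpha ring, 8 of the beta ring, 5 immune-type genes (Psmb8, Psmb9, Psmb10, Psme1 and Psme2), 6 ATPases and 11 non-ATPases of 19S, 2 other activators, 6 assembly chaperones and Psma3l, a copy like the alpha subunit Psma3. The rule also took 2 genes, Psmc3ip and Psme3ip1, that are named for a partner and encode no subunit. Psma3, Psma8, Psmf1 and Psmg3 had no probe set of their own and were not analysed here. Every value below is on the log2 scale of the deposited table, so a difference of 1 is a doubling, and levels are not compared between genes. Differences are given with the standard error (SE) of a limma model over all 12 arrays, and group means with the standard deviation over the rats of a group (SD). A gene is said to have risen or fallen where its Benjamini-Hochberg adjusted p over all 14506 genes lay below 0.05.

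The arrays had medians between 6.03 and 6.13 over all probe sets. Over the tested genes the medians lay between 6.959 and 6.995 in fed rats, 6.877 and 6.943 in phase 2 rats and 6.788 and 6.852 in phase 3 rats, and the groups did not overlap. The extraction protocol speaks of liver, whereas every other label names white fat. The mean level over 8 adipocyte markers lay between 12.22 and 12.28 in fed rats, 12.29 and 12.32 in phase 2 rats and 11.11 and 11.84 in phase 3 rats, and that over 8 hepatocyte markers between 4.95 and 5.15, 5.07 and 5.45, and 4.97 and 5.30. Of the adipocyte markers, 1 of 8 rose in phase 2 against fed, 7 of 8 fell in phase 3 against fed and 8 of 8 in phase 3 against phase 2. Markers of smooth muscle rose in phase 2 against fed in 6 of 6 cases and those of endothelium in 5 of 6, while 4 of 5 mesothelial markers and 3 of 8 fibroblast markers fell and 1 fibroblast marker rose. In phase 3 against fed, 6 of 6 smooth muscle and 3 of 6 endothelial markers rose, 3 of 5 mesothelial markers fell, and of the 8 fibroblast markers 2 rose and 6 fell. In phase 3 against phase 2 no smooth muscle marker passed in limma, 1 endothelial marker rose, 2 mesothelial markers fell, and 1 fibroblast marker rose and 6 fell. Of all genes, 9.66% rose and 15.5% fell in phase 2 against fed, and 21.1% rose and 24.3% fell in phase 3 against fed. In phase 3 against phase 2 these shares were 12.8% and 15.1%. The part of the marker shifts in the results below was not tested, and in whole tissue fewer cells of a type and less RNA per cell cannot be told apart.

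Many proteasome genes fell in phase 2 fat. Of the 47 genes 27 fell against fed, which was 57.4% of them, where 15.5% of all genes tested fell and 25.2% changed. No member rose (limma), and none was higher at an unadjusted p below 0.05, while 9.66% of all genes rose. The median difference over the 47 genes was -0.29, against 0.01 over all genes, and single genes ranged from -1.03 to 0.10. The 4 phase 2 values and the 4 fed values did not overlap for 24 of the 47 genes, where 31.0% of all genes did not overlap. Without fed rat 4, phase 2 rat 1 or phase 2 rat 2, the number that fell was 17, 17 and 16. These were 36.2%, 36.2% and 34.0%, where 12.7%, 13.6% and 12.6% of all genes fell. With the arrays centred on their medians 16 members fell (34.0%, against 12.4% of all genes). The shift of the array medians in phase 2 against fed was -0.065 over the tested genes.

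In phase 3 the members moved both ways. Against fed rats, 7 rose (14.9%) and 15 fell (31.9%), where 21.1% of all genes rose and 24.3% fell, 45.4% together, so the share of members called was near that of all genes. The median difference was -0.11, against 0.05 over all genes, and the range ran from -1.28 to 0.86. The groups did not overlap for 28 of the 47 genes, against 41.9% of all genes. The array medians shifted by -0.155 over the tested genes, and with the arrays centred 14 members rose (29.8%) and 10 fell (21.3%), with a median of 0.05, where 42.2% of all genes rose and 18.4% fell, with a median of 0.21. With quantile normalisation over the tested genes 11 rose (23.4%) and 12 fell (25.5%), where 24.5% of all genes rose and 21.5% fell.

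Against phase 2 rats, 16 genes rose in phase 3 (34.0%) and 4 fell (8.51%), where 12.8% of all genes rose and 15.1% fell, 27.9% together. The median was 0.16, against 0.03 over all genes, with a range from -0.74 to 0.90. The groups did not overlap for 18 of the 47 genes, against 26.3% of all genes. The 4 genes that fell were Psmb8, Psmb9, Psmb10 and Psme2, all of the immune type. Without phase 2 rat 1, 11 rose (23.4%) and 5 fell (10.6%), where 10.9% and 12.9% of all genes did. Of these 5, 1 was a non-ATPase of 19S. With only these groups fitted 12 rose (25.5%, against 10.4% of all genes), and with arrays centred 24 (51.1%, against 21.5%). The comparisons share arrays, so their differences are set side by side below and not correlated.

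**Figure D1:**
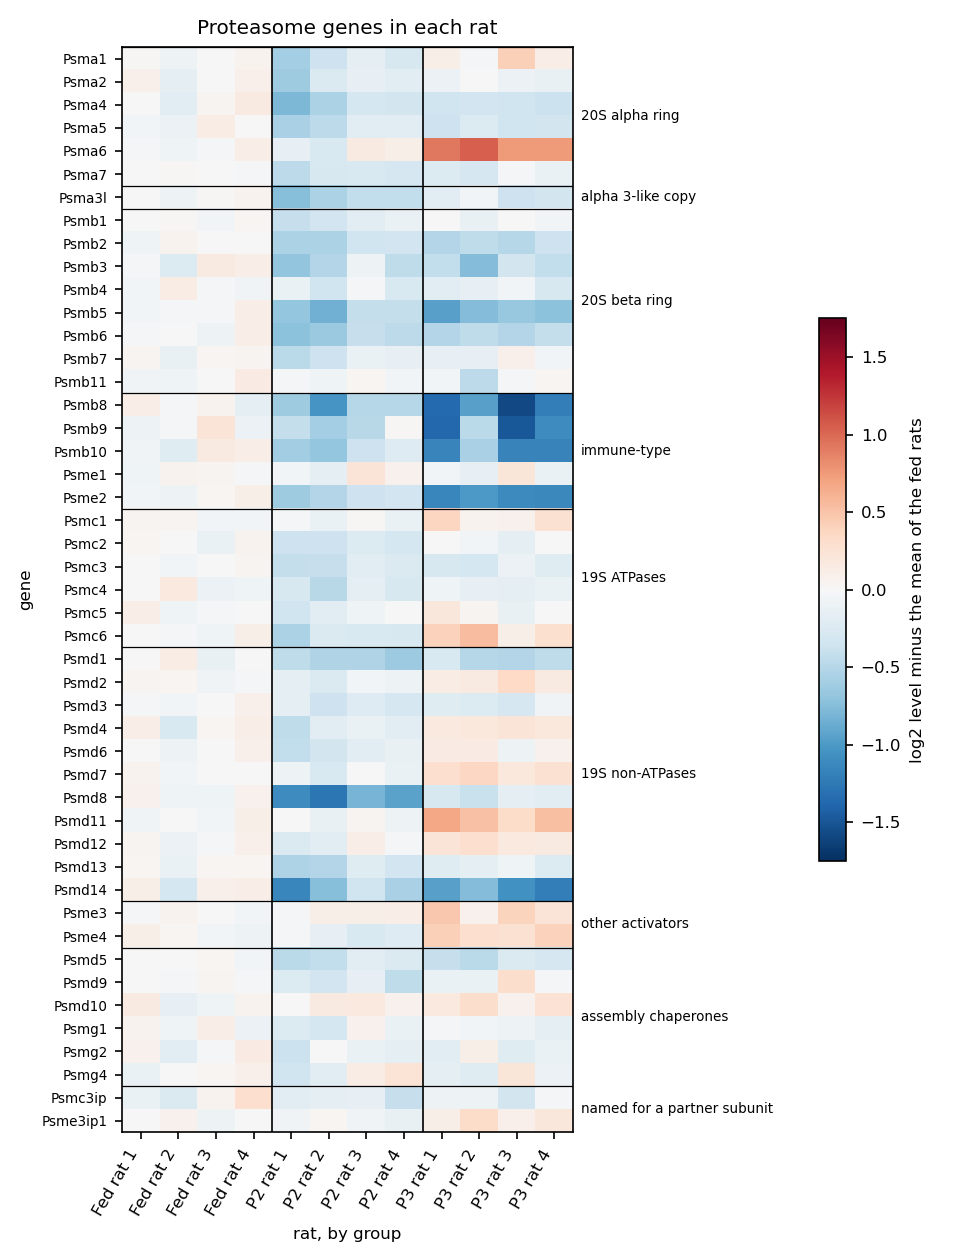
Each row is a proteasome gene and each column a rat, in the order fed, phase 2 and phase 3, and the colour gives the log2 level minus the mean of the 4 fed rats. Most rows are below the fed mean in phase 2, while in phase 3 the rows of Psmb8, Psmb9, Psmb10 and Psme2 are the lowest on average, that of Psme1 stays near the fed mean and the row of Psma6 is the highest.

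The 5 largest falls in phase 3 against fed were those of Psmb8, Psmb9, Psme2 and Psmb10, all of the immune type, and of the cap subunit Psmd14. Psmb8, the immune-type subunit with chymotrypsin-like activity, lay at 8.82, 8.68, 8.76 and 8.55 in the 4 fed rats, at 8.08, 7.67, 8.21 and 8.20 in phase 2 rats and at 7.34, 7.76, 7.12 and 7.49 in phase 3 rats. Every fasted rat was below every fed rat, and phase 3 rat 2 was above phase 2 rat 2. Psmb8 fell by 0.66 ± 0.141 (SE) in phase 2 against fed (adjusted p = 0.00314) and by 1.28 ± 0.141 in phase 3 against fed (adjusted p = 4.21e-06). The phase 3 difference was 2.42-fold. Between phase 3 and phase 2 it differed by -0.61 ± 0.141 (adjusted p = 0.00463).

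Psmb9, the immune-type counterpart of Psmb6, lay at 8.12, 8.17, 8.44 and 8.11 in fed rats, at 7.80, 7.62, 7.72 and 8.22 in phase 2 rats and at 6.83, 7.74, 6.73 and 7.11 in phase 3 rats. Phase 2 rat 4 lay within the fed range, and the difference of -0.37 ± 0.19 in phase 2 against fed did not pass (adjusted p = 0.19). In phase 3 all rats were below the fed rats, and Psmb9 fell by 1.11 ± 0.19 against fed (adjusted p = 0.000247) and by 0.74 ± 0.19 against phase 2 (adjusted p = 0.00947).

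Psmb10, the immune-type counterpart of Psmb7, lay at 7.80, 7.64, 8.02 and 7.98 in fed rats, at 7.250, 7.189, 7.498 and 7.638 in phase 2 rats and at 6.70, 7.29, 6.69 and 6.69 in phase 3 rats. It fell by 1.02 ± 0.146 in phase 3 against fed (adjusted p = 5.04e-05) and by 0.55 ± 0.146 in phase 3 against phase 2 (adjusted p = 0.0115). Its fall of 0.47 ± 0.146 in phase 2 against fed (adjusted p = 0.0312) did not pass in 8 of 19 alternatives, among them centred arrays and those without phase 2 rats 1 or 2 or fed rats 1, 3 or 4 (adjusted p between 0.0514 and 0.0988). Phase 3 rat 2 held the highest value of its group for each of these 3 subunits. Without it the falls in phase 3 against fed were 1.39 for Psmb8, 1.32 for Psmb9 and 1.17 for Psmb10.

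Psme2, the beta chain of the PA28 activator, lay at 10.44, 10.41, 10.52 and 10.59 in fed rats, at 9.86, 9.97, 10.13 and 10.15 in phase 2 rats and at 9.34, 9.48, 9.37 and 9.37 in phase 3 rats. The 3 groups did not overlap. Psme2 fell by 0.46 ± 0.0821 in phase 2 against fed (adjusted p = 0.000909), by 1.098 ± 0.0821 in phase 3 against fed (adjusted p = 9.05e-08) and by 0.64 ± 0.0821 in phase 3 against phase 2 (adjusted p = 5.54e-05). Its second probe set fell by 0.52, 1.15 and 0.63.

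Psme1, the alpha chain that joins Psme2 in the same ring, averaged 10.25 ± 0.062 in fed rats, 10.27 ± 0.173 in phase 2 rats and 10.23 ± 0.16 in phase 3 rats (SD, n = 4 each). It passed in none of the comparisons, with differences of 0.02, -0.02 and -0.04 (SE 0.1), nor did its second probe set. Psme1 and Psme2 lie close together on chromosome 15 of the rat RefSeq assembly GRCr8, with the gene Emc9 between them. The difference between the changes of both chains was not tested.

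The promoters of Psmb8, Psmb10 and Psme2 are shown with those of Psmb5 and Psmb6. They are examples picked from the genes that fell in phase 3 against fed and hold matches to known binding motifs. The stretches run from 120 bases before to 10 bases after the start used for the promoter windows of RefSeq's GRCr8 (Psmb8 on chr20:4657022-4657151, Psmb10 on chr19:50743283-50743412, Psme2 on chr15:33052742-33052871 and Psmb5 on chr15:32047370-32047499, all on the minus strand, and Psmb6 on chr10:55737768-55737897 on the plus strand). They are written 5′ to 3′ along the gene. The annotated gene spans of Psmb8 (to 4657049), Psme2 (to 33053055) and Psmb6 (from 55737852) reach beyond this start. Part of the stretch, and for Psme2 all of it, thus lies within the gene. Capitals mark GAAA and GAAA with any 2 bases between, the interferon-stimulated response element, in the first 3 and TGACNNNGC, the antioxidant response element, in the last 2, each searched on both strands.
Psmb8: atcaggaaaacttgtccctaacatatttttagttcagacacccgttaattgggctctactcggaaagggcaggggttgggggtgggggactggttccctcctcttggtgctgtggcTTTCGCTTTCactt
Psmb10: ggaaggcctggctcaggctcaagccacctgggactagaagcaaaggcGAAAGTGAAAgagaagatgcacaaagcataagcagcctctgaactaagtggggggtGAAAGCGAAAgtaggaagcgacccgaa
Psme2: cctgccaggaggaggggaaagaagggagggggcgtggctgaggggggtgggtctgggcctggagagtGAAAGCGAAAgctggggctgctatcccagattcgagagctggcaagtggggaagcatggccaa
Psmb5: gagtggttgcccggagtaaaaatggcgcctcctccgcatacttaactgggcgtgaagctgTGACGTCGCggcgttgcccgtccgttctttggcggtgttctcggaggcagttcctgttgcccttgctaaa
Psmb6: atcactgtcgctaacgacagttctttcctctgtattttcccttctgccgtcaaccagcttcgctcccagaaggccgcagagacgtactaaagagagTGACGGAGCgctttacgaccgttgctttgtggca

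Windows from 250 bases before to 50 after the start were found for 41 of the 47 genes, and 8 motifs were searched in them and in all 33469 windows of the table. These windows were not limited to the 14506 genes tested, nor matched to those of the members in base composition. The interferon motif was held by 7 of the 41 windows (17.1%), against 3.92% of all windows. They were those of Psmb8, Psmb10, Psme2, Psma4, Psmb3, Psmd7 and Psmg4, so 3 of the 5 immune-type genes held it and Psmb9 and Psme1 did not. The antioxidant motif was also held by 7 (17.1%), against 12.1% of all windows, namely those of Psmb2, Psmb5, Psmb6, Psmd1, Psmd3, Psmd9 and Psme4. The ETS motif GGAAGTG was held by 29.3% of the members' windows, against 9.86% of all, the nuclear respiratory factor 1 motif (GCGCA and GCGC with any 1 base between) by 12.2% against 4.25%, and CCAAT by 48.8% against 37.5%. The other 3 were TGAGTCA, the AP-1 site (2.44% against 4.63%), GGGGCGGGG, the SP1 site (9.76% against 9.73%), and TGACGTCA, the cyclic AMP element (2.44% against 1.83%). Among the members' windows an interferon match overlapped an ETS match in Psmb8, and an antioxidant match overlapped a CCAAT box in Psmb2. Of the holders of the interferon motif, Psmb8, Psmb10, Psme2, Psma4 and Psmb3 fell in phase 3 against fed, Psmd7 rose and Psmg4 did not pass. Of those of the antioxidant motif, Psmb2, Psmb5, Psmb6 and Psmd1 fell, Psme4 rose, and Psmd3 and Psmd9 did not pass. Whether a match goes with a direction of change was not tested. A match is a run of letters and was not shown to be a bound site.

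Cell markers were set beside the immune-type genes, since immune cells are rich in them. Of 11 macrophage markers 2 rose in phase 2 against fed, 4 rose and 3 fell in phase 3 against fed, and 3 rose and 2 fell in phase 3 against phase 2. These were 18.2%, 36.4% and 27.3%, and 27.3% and 18.2% of the list. Of all genes 9.66% rose in the first comparison, 21.1% rose and 24.3% fell in the second. In the third 12.8% rose and 15.1% fell. The mean level over the macrophage markers lay between 9.76 and 10.09 in fed rats, 9.98 and 10.25 in phase 2 rats and 9.98 and 10.50 in phase 3 rats. Of 10 T and NK cell markers none passed in phase 2 against fed in limma (2 were higher at an unadjusted p below 0.05), and 4 (Cd3g, Cd4, Cd8a and Lck) fell in phase 3 against fed, as did 5 in phase 3 against phase 2. Their mean level lay between 5.996 and 6.169 in fed rats, 6.10 and 6.39 in phase 2 rats and 5.80 and 6.03 in phase 3 rats. Cd4 averaged 9.58 in fed rats, while Cd3d, Cd3e and Cd3g averaged 3.98, 4.79 and 5.50. Levels this dim were not shown to lie above background, and which cells the Cd4 signal came from was not tested. Of 3 B cell markers measured, 1 rose and 1 fell in phase 3 against fed. Whether these cells carry the falls of the immune-type genes was not tested.

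Of the standard catalytic subunits, Psmb5 and Psmb6 fell in both fasted groups against fed. Psmb5, which carries the chymotrypsin-like activity of the standard core, lay at 9.96, 9.97, 9.98 and 10.12 in fed rats, at 9.33, 9.17, 9.59 and 9.59 in phase 2 rats and at 9.06, 9.25, 9.35 and 9.29 in phase 3 rats. Every fasted rat was below every fed rat. Psmb5 fell by 0.59 ± 0.103 in phase 2 against fed (adjusted p = 0.000796) and by 0.77 ± 0.103 in phase 3 against fed (adjusted p = 2.55e-05). Its difference of -0.18 ± 0.103 between phase 3 and phase 2 did not pass (adjusted p = 0.217).

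Psmb6, the caspase-like subunit, lay at 8.34, 8.35, 8.27 and 8.48 in fed rats, at 7.64, 7.71, 7.96 and 7.90 in phase 2 rats and at 7.84, 7.91, 7.85 and 7.95 in phase 3 rats. It fell by 0.56 ± 0.0846 in phase 2 against fed (adjusted p = 0.000285) and by 0.47 ± 0.0846 in phase 3 against fed (adjusted p = 0.000367), and its second probe set fell by 0.56 and 0.48. Psmb7, the trypsin-like subunit, averaged 10.47 ± 0.0851 in fed rats, 10.19 ± 0.169 in phase 2 rats and 10.41 ± 0.108 in phase 3 rats (SD, n = 4 each). Its fall of 0.28 ± 0.0939 in phase 2 against fed (adjusted p = 0.0445) did not pass in 8 of 19 alternatives (adjusted p between 0.0570 and 0.136), among them those without fed rats 1, 3 or 4, phase 2 rats 1 or 2, or phase 3 rat 4. Its differences in phase 3, -0.06 against fed and 0.21 against phase 2, did not pass.

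To ask whether an immune-type subunit changed unlike the standard subunit whose place it takes, the difference of both log2 levels was formed on each array. Psmb10 minus Psmb7 averaged -2.61 ± 0.113 in fed rats, -2.80 ± 0.104 in phase 2 rats and -3.56 ± 0.366 in phase 3 rats (SD, n = 4 each), a change of -0.95 in phase 3 against fed and of -0.76 in phase 3 against phase 2. Phase 3 rats did not overlap with either of the other groups. Each of these exact two-sided permutation tests gave p = 0.0286, the smallest that 4 rats against 4 allow, and an adjusted p of 0.103 over the 9 tests made. Psmb8 minus Psmb5 changed by -0.51 in phase 3 against fed (exact p = 0.0571, adjusted p = 0.103), and Psmb9 minus Psmb6 by -0.64 (exact p = 0.114, adjusted p = 0.147), with groups that overlapped.

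In phase 3 against phase 2 these pairs changed by -0.43 and -0.82 (exact p = 0.0571 and adjusted p = 0.103 for each). In phase 2 against fed the 3 pairs changed by -0.08, 0.19 and -0.19 in the order Psmb8, Psmb9 and Psmb10 (exact p = 0.486, 0.314 and 0.0857, adjusted p = 0.486, 0.353 and 0.129). No pair passed after adjustment, and with 9 tests at this smallest p the design could pass only if several pairs reached it together.

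**Figure D2:**
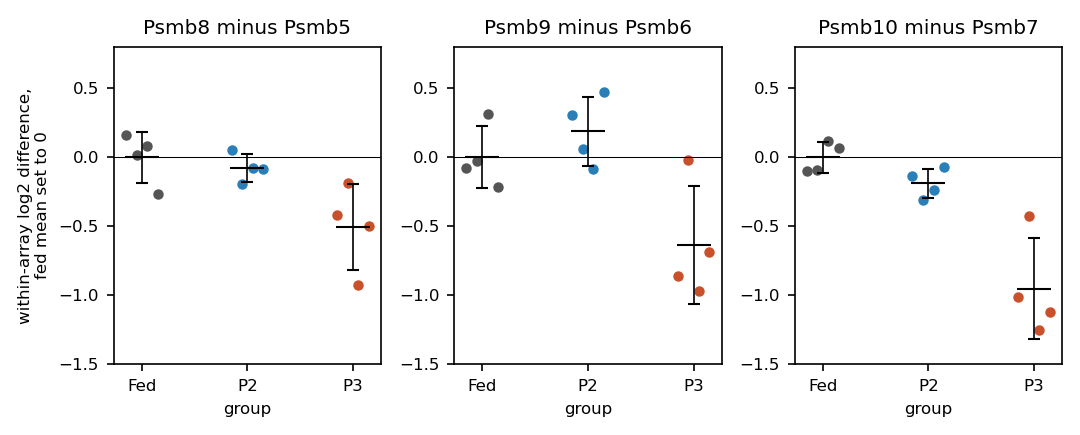
Each point is the log2 level of an immune-type catalytic subunit minus that of its standard counterpart on the array of 1 rat, less the mean of the fed rats, with bars for the group mean and SD. For Psmb10 minus Psmb7 the phase 3 rats lie below all other rats, with a mean change of -0.95 against fed. In the other panels phase 3 rat 2 lies within the ranges of the fed and the phase 2 rats.

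In the beta ring 6 of 8 genes fell in phase 2 against fed, with a ring median of -0.36, and 4 of 8 fell in phase 3 against fed. Of all genes 15.5% fell in the first comparison and 24.3% in the second. With either scaling, or without fed rats 1 or 4 or phase 2 rats 1 or 2, the number that fell in phase 2 was 3. In these alternatives between 12.4% and 13.6% of all genes fell. Psmb2, at 10.10, 10.24, 10.19 and 10.18 in fed rats, 9.63, 9.62, 9.83 and 9.84 in phase 2 rats and 9.67, 9.74, 9.67 and 9.82 in phase 3 rats, fell by 0.44 ± 0.079 in phase 2 against fed (adjusted p = 0.000884) and by 0.45 ± 0.079 in phase 3 against fed (adjusted p = 0.000273). Psmb3 fell by 0.48 ± 0.134 in phase 3 against fed (adjusted p = 0.00905). Its fall of 0.44 ± 0.134 in phase 2 against fed (adjusted p = 0.0278) is named outside the rule and did not pass in 8 of 19 alternatives (between 0.0531 and 0.0902), namely either scaling and those without fed rats 1, 3 or 4 or phase 2 rats 1, 2 or 4. Psmb1 fell by 0.26 ± 0.0783 in phase 2 against fed (adjusted p = 0.0249), which did not pass in 7 of 19 alternatives (between 0.0531 and 0.0942), among them those without fed rats 1, 2 or 4 or phase 2 rats 1 or 2. In phase 3 against phase 2 no gene of the ring passed in limma, 2 were higher at an unadjusted p below 0.05, and Psmb1 came nearest to the threshold (0.22 ± 0.0783, adjusted p = 0.0537). Psmb11, the beta subunit known from the thymus, lay between 4.25 and 4.85 in all rats and passed in no comparison.

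Of the 6 genes of the alpha ring 5 fell in phase 2 against fed, by 0.31 to 0.49, and in phase 3 against fed 1 rose and 2 fell. The falls in phase 2 were 83.3%, against 15.5% of all genes. In phase 3 against fed 16.7% rose and 33.3% fell, against 21.1% and 24.3% of all genes. The number that fell in phase 2 was 2 or 3 with either scaling or without fed rats 1, 3 or 4 or phase 2 rats 1 or 2. Psma4 averaged 10.39 ± 0.141 in fed rats, 9.90 ± 0.227 in phase 2 rats and 10.04 ± 0.0118 in phase 3 rats (SD, n = 4 each). It fell by 0.49 ± 0.107 in phase 2 against fed (adjusted p = 0.00366) and by 0.35 ± 0.107 in phase 3 against fed (adjusted p = 0.0141, and 0.116 with arrays centred). Psma7 fell by 0.33 ± 0.0783 in phase 2 against fed (adjusted p = 0.00669), and its value of -0.17 in phase 3 against fed did not pass. Psma5 fell by 0.35 ± 0.0958 in phase 2 against fed and by 0.32 ± 0.0958 in phase 3 against fed (adjusted p = 0.0159 and 0.0143). The first did not pass with quantile normalisation or without fed rat 3, phase 2 rat 1 or phase 2 rat 2 (between 0.0526 and 0.0573), and the second with either scaling or without fed rat 3 (between 0.0506 and 0.140).

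Psma6 was the member that rose furthest. It lay at 9.97, 9.92, 9.97 and 10.10 in fed rats, at 9.85, 9.73, 10.14 and 10.10 in phase 2 rats and at 10.92, 11.03, 10.73 and 10.73 in phase 3 rats. All phase 3 rats were above all other rats, while phase 2 and fed rats overlapped. Psma6 rose by 0.86 ± 0.105 in phase 3 against fed (adjusted p = 1.06e-05), 1.82-fold, and by 0.90 ± 0.105 in phase 3 against phase 2 (adjusted p = 2.4e-05). Its second probe set changed by 0.58 in phase 3 against fed, which did not pass (adjusted p = 0.0518), and by 0.66 in phase 3 against phase 2 (adjusted p = 0.0453).

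Psma1 fell by 0.35 ± 0.107 in phase 2 against fed (adjusted p = 0.026) and was higher by 0.50 ± 0.107 in phase 3 against phase 2 (adjusted p = 0.00276). The first of these did not pass in 7 of 19 alternatives (adjusted p between 0.0572 and 0.0885), among them those without fed rats 1, 3 or 4 or phase 2 rats 1 or 2. Psma3l fell by 0.54 ± 0.0934 in phase 2 against fed (adjusted p = 0.00069) and was higher by 0.32 ± 0.0934 in phase 3 against phase 2 (adjusted p = 0.02). The second did not pass without phase 2 rat 1 or phase 3 rat 2 or with only these groups fitted (adjusted p between 0.0514 and 0.0674). Psma3l is a copy like Psma3, and probes of one may read the other.

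**Figure D3:**
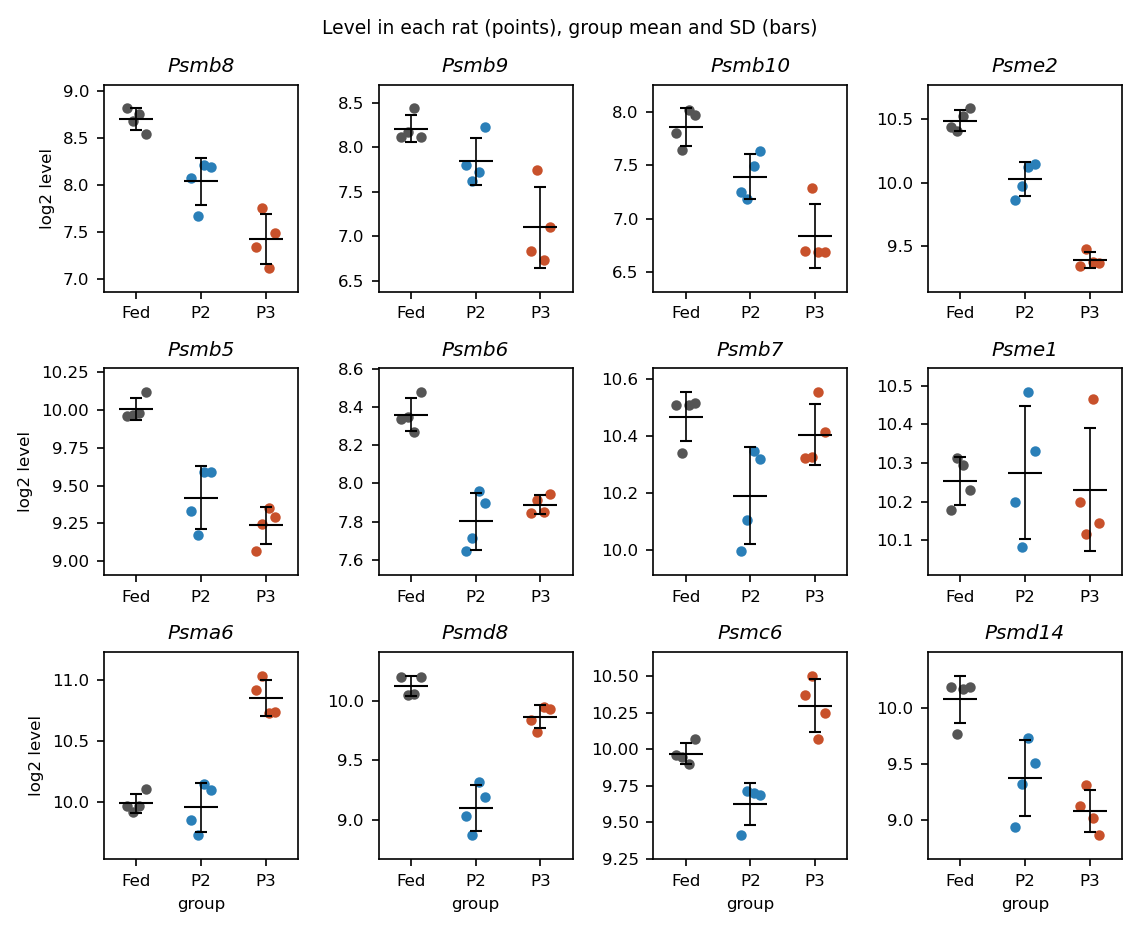
Log2 levels of 12 members by group (Fed, P2 for phase 2, P3 for phase 3), with 1 point per rat and bars for the group mean and SD. Psma6 lies above its fed range in all 4 phase 3 rats, Psmd8 is lowest in phase 2, Psme2 is lower at each step from fed to phase 2 to phase 3, and the groups of Psme1 overlap.

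Of the 6 ATPases of the cap 4 fell in phase 2 against fed (2 with arrays centred), with a median of -0.31 over all 6. Of all genes 15.5% fell there (12.4% with arrays centred). In phase 3 against fed 1 rose and 1 fell (2 and 0 with either scaling), and in phase 3 against phase 2 3 rose (5 with arrays centred). In phase 3 against fed 16.7% thus rose and 16.7% fell, below the 21.1% and 24.3% of all genes. With either scaling 33.3% rose there, against 42.2% (centred) or 24.5% (quantile) of all genes. In phase 3 against phase 2 12.8% of all genes rose (21.5% with arrays centred). Psmc6 lay at 9.96, 9.95, 9.90 and 10.07 in fed rats, at 9.41, 9.71, 9.70 and 9.69 in phase 2 rats and at 10.37, 10.50, 10.07 and 10.25 in phase 3 rats. It fell by 0.34 ± 0.101 in phase 2 against fed (adjusted p = 0.0222), but without fed rat 4 or phase 2 rat 1 or with arrays centred this did not pass (adjusted p between 0.0597 and 0.0738). In phase 3 it rose by 0.33 ± 0.101 against fed (adjusted p = 0.0149) and by 0.67 ± 0.101 against phase 2 (adjusted p = 0.000194).

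Psmc2 fell by 0.32 ± 0.0736 in phase 2 against fed (adjusted p = 0.00561) and was higher by 0.27 ± 0.0736 in phase 3 against phase 2 (adjusted p = 0.0134), while its value of -0.05 in phase 3 against fed did not pass. Psmc3 fell by 0.31 ± 0.0791 in phase 2 against fed (adjusted p = 0.00926, and 0.0527 with quantile normalisation). Its fall of 0.23 ± 0.0791 in phase 3 against fed (adjusted p = 0.0301) did not pass in 8 of 19 alternatives (between 0.0528 and 0.434), among them those without fed rats 1, 3 or 4 or phase 3 rats 1, 2 or 4. Psmc4 fell by 0.30 ± 0.0878 in phase 2 against fed (adjusted p = 0.021), but not without fed rats 1 or 2 or phase 2 rat 2 or with arrays centred (between 0.0502 and 0.0723). Its brighter probe set did not pass in phase 3 against phase 2 (0.18, adjusted p = 0.159), whereas its second probe set rose by 0.34 (adjusted p = 0.00663).
Psmc1 rose by 0.26 ± 0.0838 in phase 3 against phase 2 (adjusted p = 0.0337), a call that ended in 6 of 19 alternatives (between 0.0522 and 0.0919), among them those without phase 2 rats 1, 2 or 4 or phase 3 rats 1 or 4. Psmc5 passed in no comparison.

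Among the 11 non-ATPases 6 fell in phase 2 against fed (4 with either scaling). In phase 3, 3 rose and 3 fell against fed (6 and 2 with arrays centred), and 7 rose against phase 2. The falls in phase 2 were 54.5% of the class, against 15.5% of all genes. With either scaling they were 36.4%, against 12.4% (centred) or 13.1% (quantile) of all genes. In phase 3 against fed 27.3% rose and 27.3% fell, near the 21.1% and 24.3% of all genes. With arrays centred 54.5% rose and 18.2% fell there, where 42.2% and 18.4% of all genes did. Against phase 2 63.6% rose, against 12.8% of all genes. Psmd8, a subunit of the lid, showed the largest fall of any member in phase 2 on the brightest probe set of each gene, but not as the mean of its probe sets. On its brightest probe set it lay at 10.20, 10.05, 10.06 and 10.21 in fed rats, at 9.03, 8.87, 9.32 and 9.19 in phase 2 rats and at 9.85, 9.74, 9.95 and 9.93 in phase 3 rats, with no overlap between any groups. It fell by 1.03 ± 0.0979 in phase 2 against fed (adjusted p = 5.61e-06), 2.04-fold, and was higher by 0.77 ± 0.0979 in phase 3 against phase 2 (adjusted p = 5.09e-05).

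Its fall of 0.26 ± 0.0979 in phase 3 against fed (adjusted p = 0.0427) did not pass in 9 of 19 alternatives (between 0.0534 and 0.337), among them those without fed rats 1, 3 or 4 or phase 3 rats 1, 2 or 4. The second probe set of Psmd8 passed in no comparison, with a difference of -0.23 in phase 2 against fed (adjusted p = 0.377). As the mean of both probe sets Psmd8 fell by 0.63 in phase 2 against fed and rose by 0.42 in phase 3 against phase 2.

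Psmd14, the subunit that removes ubiquitin chains from a substrate as it enters, lay at 10.18, 9.77, 10.17 and 10.19 in fed rats, at 8.94, 9.33, 9.73 and 9.51 in phase 2 rats and at 9.13, 9.31, 9.02 and 8.87 in phase 3 rats. Every fasted rat was below every fed rat. Psmd14 fell by 0.70 ± 0.156 in phase 2 against fed (adjusted p = 0.00431) and by 0.99 ± 0.156 in phase 3 against fed (adjusted p = 0.00011). Psmd1, a scaffold of the base, fell by 0.53 ± 0.0826 and 0.43 ± 0.0826 (adjusted p = 0.000347 and 0.000639), and Psmd13 fell by 0.40 ± 0.0869 in phase 2 against fed (adjusted p = 0.00375).

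Other lid and base subunits were higher in phase 3 against phase 2, and some of them also against fed. Psmd11, a lid subunit whose rise is known to increase assembled proteasomes in stem cells, lay at 8.98, 9.06, 8.99 and 9.15 in fed rats, at 9.05, 8.92, 9.09 and 8.95 in phase 2 rats and at 9.72, 9.56, 9.37 and 9.57 in phase 3 rats. All phase 3 rats were above all others, and Psmd11 rose by 0.51 ± 0.0854 against fed (adjusted p = 0.000199) and by 0.55 ± 0.0854 against phase 2 (adjusted p = 0.000255). Psmd7, the partner of Psmd14 in the lid, rose by 0.28 ± 0.0761 against fed (adjusted p = 0.00823) and by 0.40 ± 0.0761 against phase 2 (adjusted p = 0.00129). In phase 3 against fed both partners thus changed in opposite directions. In phase 2 against fed Psmd7 differed by -0.12 and did not pass, and the difference between the changes of both partners was not tested.

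Psmd2, a docking subunit of the base, rose by 0.33 ± 0.0765 in phase 3 against phase 2 (adjusted p = 0.00474, named outside the rule). Its rise of 0.20 ± 0.0765 against fed lay at the threshold (adjusted p = 0.0498) and did not pass in 12 of 19 alternatives (between 0.0547 and 0.1254), among them those without any 1 of the fed rats, without phase 2 rats 1, 3 or 4, without phase 3 rats 2, 3 or 4 and with the replicate block. Psmd4, a receptor for ubiquitin chains, rose by 0.43 ± 0.0973 in phase 3 against phase 2 (adjusted p = 0.00421), with values of 8.69 to 8.74 in phase 3 rats and 8.07 to 8.41 in phase 2 rats. Its difference of 0.19 in phase 3 against fed did not pass (adjusted p = 0.126). Psmd6 fell by 0.27 ± 0.0861 in phase 2 against fed (adjusted p = 0.0352) and rose by 0.33 ± 0.0861 in phase 3 against phase 2 (adjusted p = 0.00978). In phase 3 against fed Psmd6 did not pass (0.07, adjusted p = 0.558). Its fall did not pass in 8 of 19 alternatives (between 0.0529 and 0.108), among them those without fed rats 1, 3 or 4 or phase 2 rats 1 or 2.

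Both other activators rose in phase 3 against fed, a comparison in which 21.1% of all genes rose. Psme4, the nuclear activator PA200, lay at 9.997, 9.922, 9.849 and 9.802 in fed rats, at 9.86, 9.75, 9.63 and 9.67 in phase 2 rats and at 10.31, 10.19, 10.15 and 10.30 in phase 3 rats. It rose by 0.34 ± 0.0788 in phase 3 against fed (adjusted p = 0.0024) and by 0.51 ± 0.0788 in phase 3 against phase 2 (adjusted p = 0.000258). Psme3, the nuclear activator PA28 gamma, rose by 0.29 ± 0.0886 in phase 3 against fed (adjusted p = 0.0144), and its second probe set changed by 0.30 (adjusted p = 0.052). Its difference of 0.23 ± 0.0886 in phase 3 against phase 2 did not pass (adjusted p = 0.0752). In phase 2 against fed neither passed in limma, nor at an unadjusted p below 0.05.

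Few assembly chaperones passed. Of 6 genes 2 fell in phase 2 against fed, Psmd5 by 0.34 ± 0.083 (adjusted p = 0.00834) and Psmd9 by 0.29 ± 0.101 (adjusted p = 0.0488). These 2 were 33.3% of the class, where 15.5% of all genes fell. Both help to assemble the base of the cap. Psmd5 was also lower in phase 3 against fed, by 0.35 ± 0.083 (adjusted p = 0.00299, and 0.0512 with arrays centred). Psmd9 was higher by 0.30 ± 0.101 in phase 3 against phase 2 (adjusted p = 0.0373). Its first call ended in 10 of 19 alternatives (between 0.0608 and 0.158), among them those without any 1 of the fed rats, phase 2 rats 1, 2 or 4 or phase 3 rat 4, and its second in 7 (between 0.05005 and 0.112), among them those without fed rat 1, phase 2 rats 1, 2 or 4 or phase 3 rats 3 or 4. Psmd10, Psmg1, Psmg2 and Psmg4 passed in no comparison. Of the genes named for a partner, Psme3ip1 rose in phase 3 against phase 2 (0.23 ± 0.0763, adjusted p = 0.033, named outside the rule), a call that ended without phase 2 rats 1, 3 or 4 or phase 3 rats 2 or 4 and with only these groups fitted, and Psmc3ip passed in none.

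**Figure D4:**
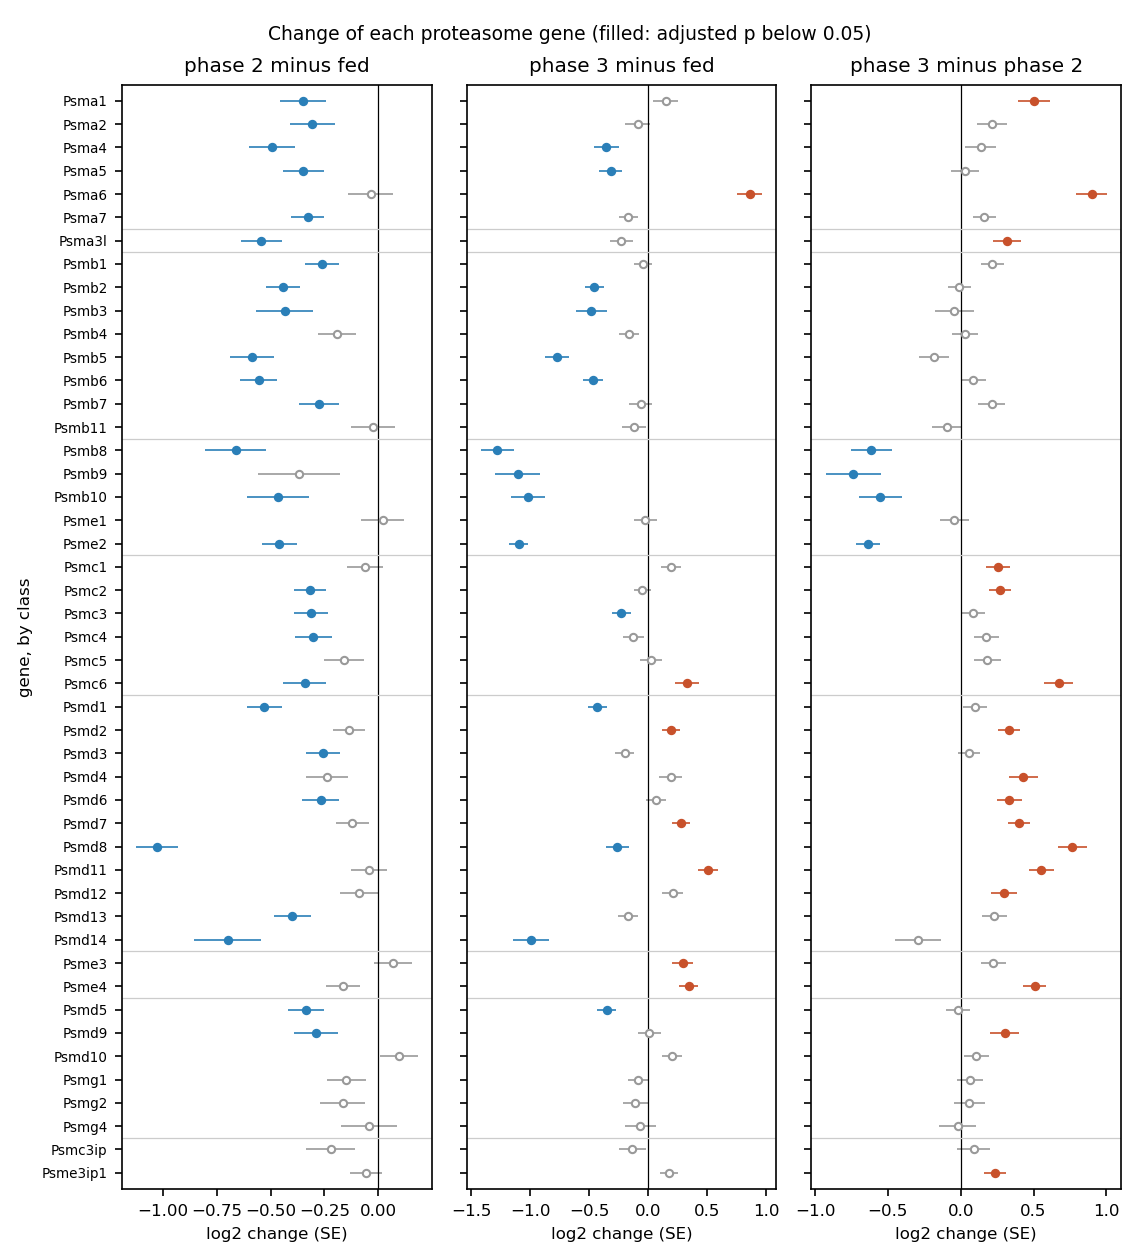
Differences in log2 level with their SE for every member, by class, in a panel for each comparison, with filled points for an adjusted p below 0.05 (blue for falls, red for rises). In the left panel (phase 2 minus fed) every filled point lies below 0, and in the right panel (phase 3 minus phase 2) the filled points below 0 are 4 of the 5 immune-type genes.

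The spread among rats also differed. The median SD over the 47 genes was 0.0823 in fed rats, 0.145 in phase 2 rats and 0.107 in phase 3 rats, against 0.112, 0.126 and 0.167 over all genes. Phase 2 rats 1 and 2 held the lowest pair of values in 31 of the 47 genes (66.0%), against 24.9% of all genes. The members are therefore not independent of each other among these rats.

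Genes that act on the proteasome were read from a list of partners, of which 12 of 15 were measured. In phase 2 against fed 3 rose and 2 fell, in phase 3 against fed 8 rose and 2 fell, and in phase 3 against phase 2 6 rose, with list medians of 0.03, 0.36 and 0.36, against 0.01, 0.05 and 0.03 over all genes. The 3 that rose in phase 2 against fed were 25.0% of the list and the 8 that rose in phase 3 against fed 66.7%, while the 2 that fell in each were 16.7%. The shares of all genes that rose and fell were 9.66% and 15.5% in phase 2 against fed, 21.1% and 24.3% in phase 3 against fed and 12.8% and 15.1% in phase 3 against phase 2. Nfe2l1, the transcription factor that raises proteasome genes when proteasomes are impaired, rose by 0.55 ± 0.0887 in phase 2 against fed (adjusted p = 0.000413) and by 0.79 ± 0.0887 in phase 3 against fed (adjusted p = 4.78e-06). Ddi2, the protease that cuts Nfe2l1 into its active form, rose by 0.70 ± 0.125 and 1.33 ± 0.125 (adjusted p = 0.000924 and 8.78e-07). Nfe2l2, the factor of the antioxidant response, rose by 0.30 ± 0.0724 and 0.79 ± 0.0724 (adjusted p = 0.00723 and 7.05e-07).

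Zfand5, a zinc finger protein that stimulates the proteasome and is known from atrophying muscle, rose by 1.20 ± 0.104 in phase 3 against fed (adjusted p = 3.89e-07) and by 0.93 ± 0.104 in phase 3 against phase 2 (adjusted p = 1.63e-05). Txnl1, a thioredoxin-like protein of the cap, fell by 0.30 ± 0.0714 in phase 2 against fed (adjusted p = 0.0062) and rose by 0.55 ± 0.0714 in phase 3 against phase 2 (adjusted p = 6e-05). Adrm1, a ubiquitin receptor of the cap, rose by 0.58 ± 0.0889 in phase 3 against phase 2 (adjusted p = 0.000235).

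**Figure D5:**
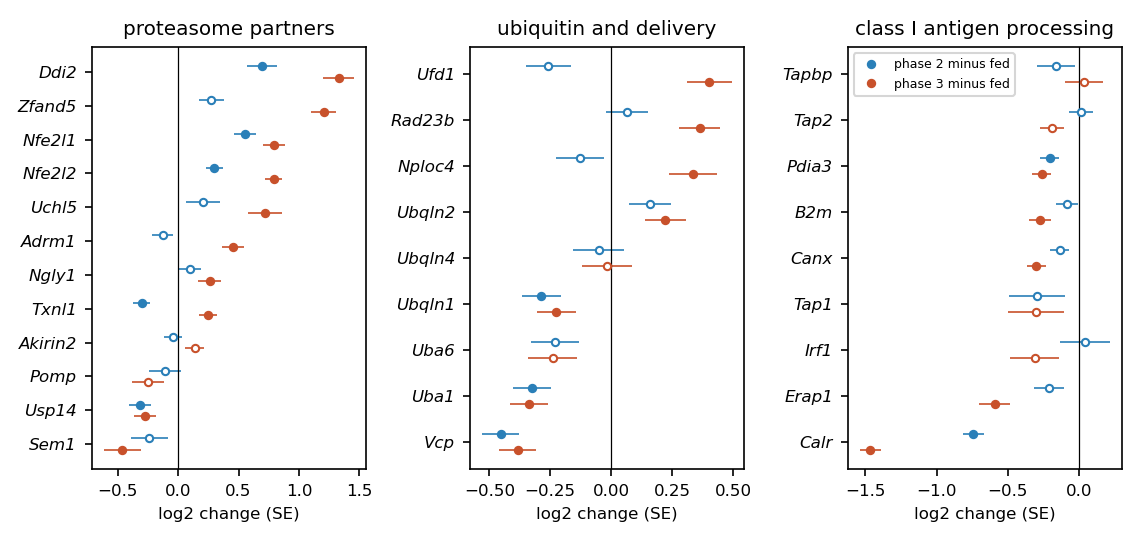
Differences in log2 level with their SE for the measured genes of 3 lists, for phase 2 minus fed and phase 3 minus fed, with filled points for an adjusted p below 0.05. Ddi2 and Zfand5 lie furthest above 0 in phase 3, at 1.33 and 1.20, and Calr furthest below it, at -1.46.

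Of the genes that attach ubiquitin or deliver substrates, 9 of 14 were measured. In phase 2 against fed 3 fell, in phase 3 against fed 4 rose and 3 fell, and in phase 3 against phase 2 3 rose. These were 33.3% of the list, 44.4% and 33.3%, and 33.3%, where 15.5% of all genes fell in the first comparison, 21.1% rose and 24.3% fell in the second and 12.8% rose in the third. The list medians were -0.23, -0.02 and 0.06. Vcp, the ATPase that extracts proteins for degradation, fell by 0.45 ± 0.0761 in phase 2 against fed (adjusted p = 0.000585) and by 0.38 ± 0.0761 in phase 3 against fed (adjusted p = 0.000811). Uba1, the main ubiquitin-activating enzyme, fell by 0.32 ± 0.0771 and 0.34 ± 0.0771 (adjusted p = 0.00664 and 0.00239), and the shuttle protein Ubqln1 by 0.29 ± 0.0784 in phase 2 against fed (adjusted p = 0.0153, and 0.0611 with arrays centred). Ufd1 and Nploc4, cofactors of Vcp, rose in phase 3 against phase 2, by 0.66 ± 0.0916 and 0.46 ± 0.0983 (adjusted p = 0.000103 and 0.0027). The shuttle protein Rad23b rose by 0.36 ± 0.0855 in phase 3 against fed (adjusted p = 0.00301) and by 0.30 ± 0.0855 in phase 3 against phase 2 (adjusted p = 0.0174). The second of these did not pass without phase 2 rats 1 or 4 or with only these groups fitted (between 0.05004 and 0.0568).

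Of 11 genes of class I antigen processing, which loads peptides from the proteasome for display to T cells, 9 were measured. Against fed 2 fell in phase 2 (22.2%, against 15.5% of all genes) and 5 in phase 3 (55.6%, against 24.3%), and 2 fell in phase 3 against phase 2 (22.2%, against 15.1%). The list medians were -0.16, -0.30 and -0.19. Calr, a lectin chaperone of the endoplasmic reticulum that also serves many other proteins, fell by 0.74 ± 0.0731 in phase 2 against fed (adjusted p = 7.6e-06), by 1.46 ± 0.0731 in phase 3 against fed (adjusted p = 2.25e-09) and by 0.72 ± 0.0731 in phase 3 against phase 2 (adjusted p = 7.1e-06). Erap1, which trims peptides in the endoplasmic reticulum, fell by 0.59 ± 0.107 in phase 3 against fed (adjusted p = 0.000363) and by 0.38 ± 0.107 in phase 3 against phase 2 (adjusted p = 0.0149). The chaperones Canx and Pdia3 fell by 0.30 ± 0.0665 and 0.26 ± 0.0649 in phase 3 against fed (adjusted p = 0.00191 and 0.00417), but neither passed with arrays centred (0.0826 and 0.165). The fall of Pdia3 in phase 2 against fed, by 0.21 ± 0.0649 (adjusted p = 0.0318), did not pass in 9 of 19 alternatives (between 0.0505 and 0.135), among them those without fed rats 1, 3 or 4 or phase 2 rats 2, 3 or 4.

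Tap1, a chain of the transporter that carries peptides into the endoplasmic reticulum, lies between Psmb8 and Psmb9 on chromosome 20 in GRCr8 and is named for that position, outside the rule for named genes. It differed by -0.29 ± 0.196 in phase 2 against fed and by -0.30 ± 0.196 in phase 3 against fed (adjusted p = 0.326 and 0.228) and did not pass, nor did it in phase 3 against phase 2 (-0.01 ± 0.196, adjusted p = 0.983). Its difference from its neighbours was not tested.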

How the data were processed

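Total RNA of epididymal white fat from 12 rats was hybridised to 1 array per rat, without technical replicates. The authors deposited log2 levels for each probe set. The submitters' processing notes name RMA, GCOS and Affymetrix Expression Console 1.1, and the RMA settings and library version are not given in the sources used here. RMA corrects background, quantile-normalises arrays and summarises probes, so a rise of many genes at once can be dampened. Detection calls were not used, and no scan date or array batch entered a test.

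Of 29215 probe sets, 15310 had 1 gene in the platform annotation, 323 several and 13582 none. Genes with several probe sets were represented by the brightest over all arrays. limma 3.58.1 in R 4.3.3 fitted the 14506 genes in 1 model of 3 group means (lmFit, eBayes), with Benjamini-Hochberg adjustment over all genes in each comparison. The fit was tested on simulated data. Catalytic pairs were tested by exact two-sided permutation over rats (scipy 1.17.1). Python 3.11.15, pandas 2.3.3 and matplotlib 3.10.9 prepared tables and plots. The number of arrays limits the precision.

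Of 47 members, 46 matched RefSeq, whose promoter table (GRCr8) held 41. By rule the text names the catalytic, immune-type and activator genes, the 4 members of a class with the smallest adjusted p in a comparison, members called against the majority, members whose probe sets disagree or whose calls change sign, and up to 4 called genes per pathway list. The members, lists and tests were chosen with earlier results of these data known. Same-numbered rats did not deviate together (correlations from -0.155 to 0.188), so the numbers were not taken as pairs.

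Alternatives were centred arrays, quantile normalisation over the tested genes, removal of the dimmest 40% of genes, the mean of all probe sets, an intensity trend with robust prior, a fit of only the groups compared, a block for the replicate number and leaving out each rat, 19 for each gene.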

Additional observations from a re-analysis of the deposited data

Results flagged for a closer look

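In 9 of 117 groups of 4 rats, over the named members, 1 rat stood apart, with a gap to the nearest rat that was a larger share of the group's range than Dixon's critical value. Chance flags about 1 in 20 such groups. Psmb10 in phase 3 rat 2 was the highest of its group at 7.29, against 6.70 in the nearest rat, a gap of 0.974 of the range. Psmd2 in phase 3 rat 3 was also the highest (11.16 against 10.98, 0.873). In phase 2 rat 1 the lowest values were those of Psma7 (10.02 against 10.18, 0.866), Psmc6 (9.41 against 9.69, 0.906) and Psme3 (9.52 against 9.66, 0.906). In fed rat 2 they were those of Psmb7 (10.34 against 10.51, 0.971), Psmd13 (8.603 against 8.752, 0.978) and Psmd14 (9.77 against 10.17, 0.946). Psmb5 in fed rat 4 was the highest of its group (10.12 against 9.98, 0.853).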

How the results depend on the processing

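With centred arrays or with quantile normalisation, 16 members (34.0%) instead of 27 fell in phase 2 against fed, where 12.4% or 13.1% of all genes fell. In phase 3 against fed 14 (29.8%) or 11 (23.4%) instead of 7 rose, where 42.2% or 24.5% of all genes rose. Without the dimmest 40% of genes 11 members rose (23.9%), where 28.4% of the remaining genes rose. With each rat left out in turn, the number that fell in phase 2 against fed ran from 16 to 27. Of 93 calls of named genes, 69 held in all 19 alternatives, among them those of Psmb8, Psme2, Psmd14, Psmb5, Psmb6, Psmd1 and Psmd11 and of Psma6. Of 2356 alternative values for named genes none reversed a call, 125 lost one and 30 gained one. The replicate number as a block gave 24 falls in phase 2 against fed, 6 rises and 15 falls in phase 3 against fed and 16 rises and 4 falls in phase 3 against phase 2, and did not bring any catalytic pair past the threshold. With 3 rats against 4 the smallest exact p is 0.0571, and with 4 pairs of same-numbered rats 0.125, so those pair tests could not pass. With 4 arrays a group, differences near 0.2 are at the limit of what was called, and levels of dim second probe sets were not shown to lie above background.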
